A study of Mus musculus with 32 samples.

Results

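Of 8829 regions that HA-Ikaros occupied in both 2h libraries of induced pre-B cells, 298 (the members) had no H3K27ac peak in any of 8 H3K27ac libraries. They were found by merging the 8 Ikaros peak lists into 23844 regions and keeping those that overlapped a peak in both Ikaros 2h lists and in none of the 8 H3K27ac lists. The other 8531 regions called in both 2h lists overlapped a peak in at least 1 H3K27ac list, and 7702 of them did so in all 8. The 298 are called unacetylated Ikaros regions below and the 8531 acetylated Ikaros regions. The names record peak calls only, since a region without a peak lay under the threshold of a library and was not shown to lack the mark. The Ikaros 2h calls and all H3K27ac calls chose the members, so these are given as descriptions with no test. The earlier Ikaros lists entered through the merging, which sets how far a region extends, and leaving out 1 of them gave 298 to 307 members. Ikaros calls before 2h were therefore tested on regions merged from the 2h lists alone (316 by the same rule), which was added after seeing the data. The CHD4 lists had no part in the choice.

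The study used B3, a line of mouse pre-B cells that carries, from a retrovirus, Ikaros joined to an HA tag and to ERt2. The ERt2 domain, a modified oestrogen receptor domain, keeps the fusion out of the nucleus while its ligand 4-hydroxytamoxifen (4-OHT) is missing. Cells were left untreated (0h) or received 500 nM 4-OHT for 30 min, 1h or 2h. ChIP-seq mapped Ikaros (anti-HA), CHD4 and H3K27ac at each time in 2 replicates, and each of the 24 libraries has a peak list of its own. The 0h cells carry the construct too, no cells without it were among the samples used, and the anti-HA beads do not see the cells' own Ikaros. Nothing in the labels says that replicates were separate cultures or transductions, so p-values measure the spread between these libraries. The label of the line was checked against the acetylation of marker genes. Of the pre-B markers, 10 of 11 had an H3K27ac peak within 1 kb of a transcription start site (TSS) in all 8 lists, against 1 of 6 T cell, 0 of 6 myeloid and 2 of 6 erythroid genes. Mean coverage was 3.59 and 3.13 fragments per base in the Ikaros 0h libraries and 1.98 to 2.85 in the later ones, so the 0h libraries were the deeper. It was 3.75 to 4.34 for H3K27ac, and for CHD4 the depth is unknown.

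Ikaros (encoded by Ikzf1) is a zinc finger transcription factor of lymphoid cells that binds DNA with a GGGAA core, often in repeated copies, and is also known to gather at pericentromeric satellite DNA. It recruits the nucleosome remodelling and deacetylase (NuRD) complex, which joins the ATPase CHD4 to histone deacetylases. H3K27ac marks active promoters and enhancers, and it is among the marks that NuRD's deacetylases remove.

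The members were unlike each other in sequence, and 3 sets show the range. The first set holds arrays of short repeats with GGGAA-type words, among them the 2 members with the highest Ikaros fold rank. Each sequence is the plus strand of mm10 (GRCm38) from 50 bp before to 50 bp after the Ikaros summit of 2h replicate 1, and capitals mark the words GGAA and GGGA, the core of Ikaros sites, on either strand (TTCC or TCCC where the other strand holds them).
Snx29 intron (chr16:11686557-11686657): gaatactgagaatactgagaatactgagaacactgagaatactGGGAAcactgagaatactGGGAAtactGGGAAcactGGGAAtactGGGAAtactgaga
Nr3c2 intron (chr8:77221233-77221333): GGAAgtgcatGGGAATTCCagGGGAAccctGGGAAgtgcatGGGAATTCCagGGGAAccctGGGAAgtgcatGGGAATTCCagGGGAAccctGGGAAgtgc
Cdr1 coding exon (chrX:61184337-61184437): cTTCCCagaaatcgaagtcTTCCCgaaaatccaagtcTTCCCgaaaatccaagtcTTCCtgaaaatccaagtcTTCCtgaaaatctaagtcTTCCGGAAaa

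The second set is satellite DNA with a long period. The first comes from the widest member, near the start of chromosome 9, which was singled out after its values were seen, and the second from a member on chromosome 2.
Gm10718 (chr9:3024423-3024523): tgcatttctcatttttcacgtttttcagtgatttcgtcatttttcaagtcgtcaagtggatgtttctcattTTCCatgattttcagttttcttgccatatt
Gm10800 (chr2:98666925-98667025): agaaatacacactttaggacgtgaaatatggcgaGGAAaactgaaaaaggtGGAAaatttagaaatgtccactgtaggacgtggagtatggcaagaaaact

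The third set, shown for contrast, is unique DNA with no array. These are 2 of the strongest members of that kind, at an intron of Atp5o and at the start of Tha1.
Atp5o intron (chr16:91825935-91826035): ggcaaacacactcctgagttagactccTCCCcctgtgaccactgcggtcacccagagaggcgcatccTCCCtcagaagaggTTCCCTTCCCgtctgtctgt
Tha1 (chr11:117872069-117872169): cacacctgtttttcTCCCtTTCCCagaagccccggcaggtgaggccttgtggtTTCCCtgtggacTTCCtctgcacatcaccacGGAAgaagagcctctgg

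Fewer members than acetylated regions were already called for Ikaros before 2h. Among the 298 members, 87 (29.2%) were called in 0h replicate 1 and 103 (34.6%) in replicate 2, where 53% and 59.9% of all 8829 regions were called. At 30 min, 111 (37.2%) and 67 (22.5%) were called in replicates 1 and 2, against 66.6% and 43.6% of all regions. At 1h the counts were 184 (61.7%) and 215 (72.1%), against 82.5% and 87.1%. The 1h values lay above all others, while the 0h and 30 min values overlapped. The mean share was 31.9% ± 3.80 before 4-OHT (SD, n = 2). After 30 min it was 29.9% ± 10.4, and after 1h 66.9% ± 7.36. The trend over these 6 libraries had a Spearman's rho of 0.717 and a Pearson's r of 0.801. On the 316 regions merged from the 2h lists alone, rho was 0.717 too and did not pass the test (exact two-sided permutation p = 0.178, 0.237 after adjustment over 4 tests). The trend rested on the 1h libraries, since r was -0.18 without them and 0.945 without the 0h libraries. With lists cut to equal size, which leaves 81 members, rho was 0.985.

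The member share was lower than the acetylated share in 6 of 6 libraries, with differences from -30.4 to -15.5 percentage points. The mean difference was -23.3 percentage points ± 5.04 (SD, n = 6), -16.2 within 10 bins of the 2h fold rank, since members were also the weaker peaks at 2h, and -13.5 with lists of equal size. On regions merged from the 2h lists alone it was -23.6 (exact two-sided sign-flip permutation p = 0.03125, the smallest that 6 libraries allow, adjusted p = 0.0625), which did not pass the adjustment.

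**Figure D1:**
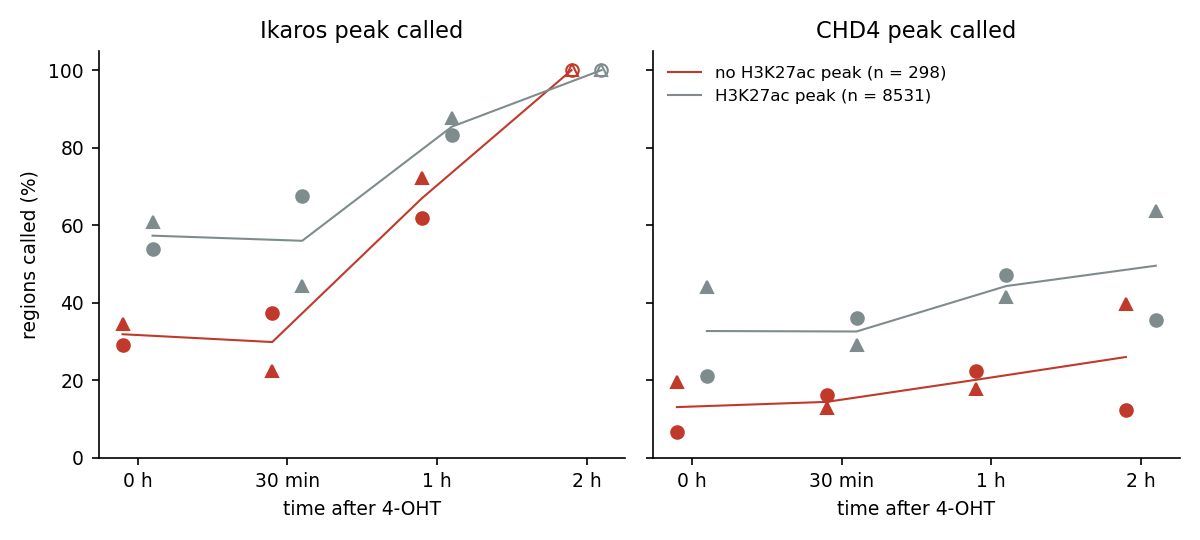
Share of regions with a peak (%) against time after 4-OHT, for Ikaros at the left and CHD4 at the right, in the 298 unacetylated (red) and 8531 acetylated Ikaros regions (grey). Circles are replicate 1, triangles replicate 2 and lines join the means, and the open symbols at 2h are fixed at 100% by the rule. Red symbols lie below the grey symbol of the same library in the 6 earlier Ikaros libraries and in all 8 CHD4 libraries.

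By single regions, 179 members (60.1%, 95% Wilson interval 54.4 to 65.5, counting error only) were called in neither 0h list, against 32.4% of all 8829 regions, and 71 (23.8%) in both, against 45.3%. Both 30 min lists called 51 members (17.1%, against 37.7%) and both 1h lists called 154 (51.7%, against 76%). No list before 1h called 141 (47.3%, against 17.8%), and no list before 2h called 48 (16.1%, against 4.08%). All 8 Ikaros lists called 26 (8.72%, against 26.1%). With lists of equal size, 48.1% of 81 members were in neither 0h list (Wilson interval 37.6 to 58.9).

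In strength the members ran from the bottom to the top of the 2h lists. Their fold enrichment over the local background, the deposited value of each peak, had a median of 4.13 in 2h replicate 1 and 4.80 in replicate 2, against 4.68 and 5.36 in acetylated regions. As a percentile rank within the list, averaged over both replicates, the median was 44.8 against 59.5, and the lowest and highest members stood at 0.0458 and 99.9. For the libraries whose fragments could be recovered from the lists, the median peak height of the members called was 19 and 16 fragments at 30 min in replicates 1 and 2, 19 and 19 at 1h, and 17 and 16 at 2h. The library with the fewest calls, 30 min replicate 2, was also the shallowest, and the part of depth in the calls was not tested. The members were narrower, with a median width of 690.5 bp against 1134 bp. A merged region spans the peaks of each Ikaros list that called it, and the median was 4 lists for members against 6. The part of width in the calls was not tested.

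The members with the highest 2h rank were arrays. The first spans chr16:11685258-11688996 in an intron of Snx29, a sorting nexin gene. Its fold was 26.0 and 40.4 at 0h in replicates 1 and 2, 13.8 and 18.1 at 30 min, 15.6 and 14.8 at 1h and 11.4 and 15.4 at 2h. The peak was thus strong in uninduced cells, and its fold was lower in every later library. The 2h fold was 10.9 in both replicates in the intron of Nr3c2, the mineralocorticoid receptor gene (chr8:77220187-77222086). There the fold was 11.2 and 10.8 at 0h, 13.8 and 11.1 at 30 min and 20.2 and 11.4 at 1h, so 1h replicate 1 stood above the other libraries. Both arrays were called in all 8 Ikaros lists.

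Of the 6 highest members, 3 lie in DNA without an array. A region at chr11:87443269-87444237, in an intron of Tex14 and 32 bp from the TSS of the small nucleolar RNA gene Rnu3b1, had a fold of 7.01 and 10.7 at 2h, and of 8.15 in replicate 2 at 0h with no call in replicate 1. At an intron of Atp5o, 1233 bp from a TSS of Itsn1 (chr16:91825548-91826304), the fold was 4.31 at 0h in replicate 1 and not called in replicate 2, 6.09 and 4.91 at 30 min, 13.1 and 5.61 at 1h and 9.87 and 8.24 at 2h. Its 2h values lay above its 0h and 30 min values. The last of these covers Rn7sk (chr9:78174965-78175673), the gene of the 7SK RNA that restrains transcription elongation, with a fold of 4.54 and 5.53 at 0h and of 9.87 and 7.62 at 2h. Folds are relative to each library's own background, and no test was run on a single region.

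CHD4 peaks were rarer at members than at acetylated regions in each CHD4 library. At 0h, 20 members (6.71%) were called in replicate 1 and 58 (19.5%) in replicate 2, against 20.7% and 43.4% of all 8829 regions. At 30 min the counts were 48 (16.1%) and 38 (12.8%), against 35.3% and 28.6%, and at 1h 67 (22.5%) and 53 (17.8%), against 46.4% and 40.6%. At 2h they were 37 (12.4%) and 118 (39.6%), against 34.7% and 62.8%. The 2h replicates stood further apart than the means of any 2 times, and the 2 libraries with the longest lists, 2h replicate 2 with 9593 peaks and 0h replicate 2 with 6000, gave the highest share and the third highest. The third longest, 2h replicate 1 with 5523 peaks, gave 12.4%, below both 30 min libraries with 4081 and 3369. The mean share was 13.1% ± 9.02 before 4-OHT (SD, n = 2) and 14.4% ± 2.37 after 30 min. After 1h it was 20.1% ± 3.32, and after 2h 26.0% ± 19.2. The trend did not pass the test, with rho at 0.342 (exact two-sided permutation p = 0.422, also after adjustment) and r at 0.548 (exact permutation p = 0.162, also after adjustment), and r was 0.568 without the 2h libraries. Without 2h replicate 2 alone r was 0.118, and without 2h replicate 1 alone 0.870.

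The CHD4 share of members was below that of acetylated regions in 8 of 8 libraries, with differences from -24.7 to -14.5 percentage points. The mean difference was -21.4 percentage points ± 3.99 (SD, n = 8, exact two-sided sign-flip permutation p = 0.00781, the smallest that 8 libraries allow, adjusted p = 0.03125), and it was -16.4 within bins of the 2h Ikaros rank (adjusted p = 0.03125). Among the strongest CHD4 peaks the call was lost over all members, but it held without the 22 tandem repeat members described below. With CHD4 peaks of −log10 q of at least 3, which left 343 to 1482 peaks per list, between 3.69% and 10.7% of members were called against 2.60% to 14.6% of acetylated regions, and the mean difference was -0.249 percentage points (exact sign-flip permutation p = 0.789). Without the 22 tandem members it was -3.49 at that limit (adjusted exact sign-flip permutation p = 0.03125). With lists of equal size the CHD4 difference was -6.04 (exact permutation p = 0.0156, 0.0444 after adjustment). With any 1 CHD4 library left out the difference was -22.4 to -20.9, and the adjusted p was 0.0625, the smallest that the remaining libraries allow. With the 2 replicates averaged at each time the call was lost too. The exact sign-flip permutation p was then 0.125, the smallest that 4 times allow, and 0.333 after adjustment.

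**Figure D2:**
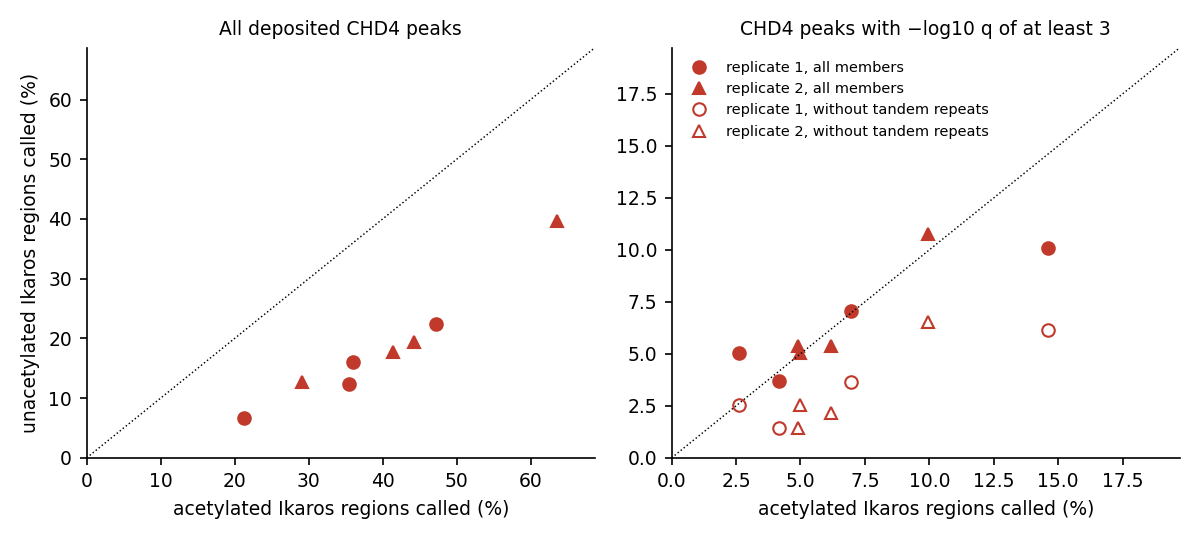
Share of unacetylated Ikaros regions with a CHD4 peak (%) against the share of acetylated ones (%), one point per CHD4 library, with all deposited peaks at the left and peaks of −log10 q of at least 3 at the right; the dotted line marks equal shares. Filled symbols are all 298 members and open symbols the 276 members without tandem repeats, circles replicate 1 and triangles replicate 2. All points lie below the line at the left. At the right the filled points lie around it and the open points below it.

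Counted over the 8 lists, 176 members (59.1%) had a CHD4 peak in at least 1, against 81.9% of all 8829 regions. The other 122 (40.9%) had none, against 18.1%, and 11 (3.69%) had one in all 8, against 7.45%. Both 0h lists called 17 members (5.70%, against 17.7%) and both 2h lists called 31 (10.4%, against 28.8%). CHD4 was called in both 2h and neither 0h list at 8 members (2.68%, against 7.02%), and in both 0h and neither 2h list at 3 (1.01%, against 1.17%). A member thus most often had CHD4 in 0 or 1 list, as 122 and 86 members did.

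**Figure D3:**
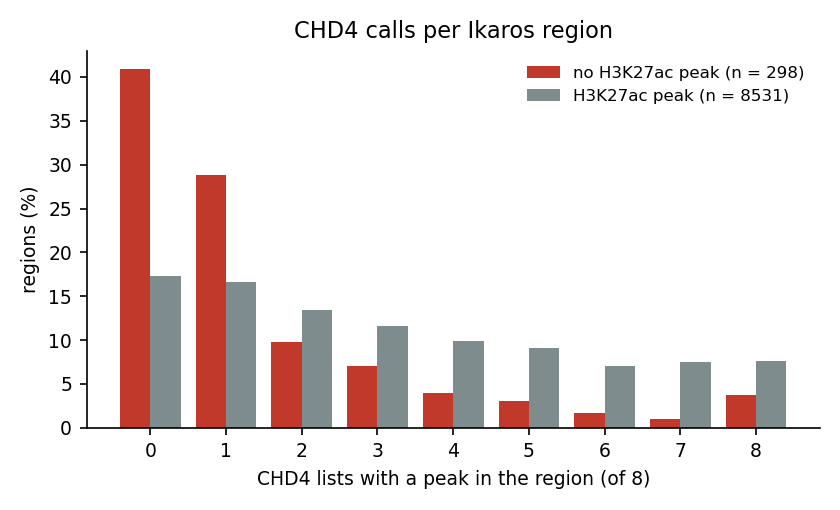
Share of regions (%) by the number of the 8 CHD4 lists with a peak there, for the 298 unacetylated (red) and 8531 acetylated Ikaros regions (grey). The red bars stand at 40.9% and 28.9% for 0 and 1 list and the grey bars at 17.3% and 16.7%.

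CHD4 calls were set beside the Ikaros calls before 4-OHT. Among the 71 members in both Ikaros 0h lists, CHD4 was called at 15.5% and 39.4% in 0h replicates 1 and 2 and at 21.1% and 46.5% at 2h. Among the 179 members in neither Ikaros 0h list it was called at 4 and 14 of 179 members at 0h (7.82% in replicate 2) and at 9.50% and 38.5% at 2h. Each value of the second group was below the first group's in the same library. That order did not hold without the 22 tandem repeat members described below, 13 of which were in both 0h lists. It then turned in 1h replicate 2 (12.1% of 58 against 15.8% of 171), 2h replicate 1 (6.90% against 8.77%) and 2h replicate 2 (36.2% against 38.0%). Acetylated regions in both Ikaros 0h lists had CHD4 at 32.6% and 58.6% at 0h and at 41.3% and 71.0% at 2h. Those in neither had it at 8.65% and 26.9% at 0h and at 28.7% and 54.1% at 2h.

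The 4 highest members that gained CHD4 by that rule were named. Rn7sk had a CHD4 fold of 3.53 and 3.35 at 2h. An array in an intron of Cdkn2a, the locus of the p16 and p19 cell cycle inhibitors (chr4:89284714-89285959), had a CHD4 fold of 3.04 and 3.05 at 2h, and its Ikaros fold was 6.47 and 6.41 at 0h and 4.94 and 9.92 at 2h. A region in the noncoding gene Gm28048 (chr11:22890793-22892751) had a CHD4 fold of 3.02 and 2.97. Another array, in an intron of Dock2, a Rac activator of leukocytes (chr11:34542887-34545007), had a CHD4 fold of 2.64 and 3.44. Ikaros was called at 0h in both lists at the first 3 and in neither at Dock2. The rule itself required that no 0h list called CHD4 there.

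Tandem repeats were the clearest feature of sequence. Tandem identity, which was chosen with the values in view, is the highest share of bases that equal the base 5 to 250 bp further on, in a window around the summit. It reached 0.5 in 22 members (7.38%, Wilson interval 4.93 to 10.9) and in 18 of 8531 acetylated regions (0.211%, 0.134 to 0.333). The most common period, 234 bp in 5 members, is the known unit length of the mouse major satellite, and another 4 had a period within 1 bp of it or of an even fraction of it (58, 117 or 235 bp). In the other 13 the period ran from 8 to 53 bp. The 22 differed from the other 276 in both readouts. Of the 22, 13 were called in all 8 Ikaros lists and 13 had CHD4 in both 2h lists, while among the 276 it was 13 and 18.

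The 9 members with a satellite period had mean 2h ranks from 0.0563 to 25.4, and the 13 with a shorter period from 12.8 to 99.9. The Cdr1 array, in the coding exon of a brain gene known for its circular antisense RNA (chrX:61183641-61186333), had an Ikaros fold of 12.1 and 12.2 at 0h and of 5.46 and 8.00 at 2h. The widest member, 15070 bp at chr9:3023199-3038268, had a fold of 1.95 and 1.93 at 0h, 2.06 and 2.32 at 30 min, 2.12 and 2.11 at 1h and 2.15 and 2.34 at 2h. Its 6 values after 4-OHT lay above both 0h values, and its CHD4 fold also went from 1.25 and 1.24 at 0h to 1.61 and 1.71 at 2h. In all, 15 members had a mean 2h rank under 1, 7 of them tandem repeats and 8 not, and their 2h replicate 1 folds lay between 1.43 and 2.25.

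**Figure D4:**
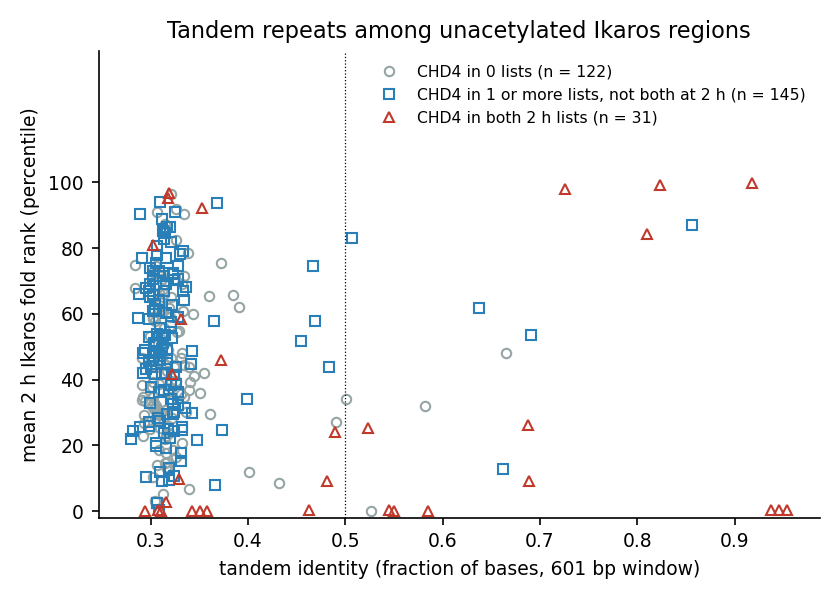
Mean 2h Ikaros fold rank (percentile within the list) against tandem identity (fraction of matching bases) for the 298 unacetylated Ikaros regions, with the symbol giving the CHD4 calls and the dotted line the limit of 0.5. Of the 31 members with CHD4 in both 2h lists (red triangles), 13 lie to the right of the line and 7 more at a rank under 1 to its left.

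The local background went with these calls. MACS2 compares each peak with a local background, which could be recovered for 290 members in 2h replicate 1. It was at most 10 fragments at 273 members (median 2.90, close to the library's mean coverage), over 10 at 17 members (median 57.5, highest 215) and not recovered at 8, all tandem repeats. The 25 members of the last 2 groups held 12 and 7 of the 31 with CHD4 in both 2h lists, and the 273 held 12. Among the 8 regions at chr11:3100150-3199966, around Sfi1 and Eif4enif1, the mean 2h rank ran from 0.0458 to 9.15. How the aligner placed reads from repeats is not given in the sources used here, nor is the removal of such regions from the lists, and the part of background in these calls was not tested. Without the 22 tandem members the CHD4 difference from acetylated regions was -24.5 percentage points (adjusted p = 0.03125), and with CHD4 peaks of −log10 q of at least 3 it was then -3.49 (adjusted p = 0.03125 by the exact sign-flip permutation test).

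The words themselves were about as dense as in acetylated regions. Within 50 bp of the summit the median density of these words was 2.97 words per 100 bp in members and in acetylated regions, and in windows 500 bp away it was 1.98 in both. The longer word TGGGAA, which holds both short words and reads TTCCCA on the other strand, occurred in 41 members (13.8%) and in 12.5% of acetylated regions, with 9.40% and 9.24% in the windows 500 bp away. The short words also match other factors' sites, such as those of the ETS family. The members were a little poorer in CpG, with a median observed-to-expected ratio of 0.288 against 0.394 and a GC content of 50.1% against 52.3%. Repeat-masked sequence filled over 50% of the window in 24 members (8.05%, Wilson interval 5.47 to 11.7), against 2.38% of acetylated regions.

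Members lay farther from genes' starts than acetylated regions. Within 1 kb of a TSS were 87 members (29.2%, Wilson interval 24.3 to 34.6) and 57.3% of acetylated regions, and the median distance was 4258 bp against 203 bp. Within 1 kb of a TSS of a protein-coding gene were 68 (22.8%), against 52.0%. Of the summits, 139 were intergenic (46.6%), 131 in introns (44.0%), 11 in coding exons, 10 in untranslated exons and 7 in noncoding exons. In acetylated regions, 36.3% of the summits were intergenic and 12.9% untranslated, against 3.36% in members. Members within 1 kb of a TSS were called for Ikaros at 35.6% and 36.8% at 0h and at 62.1% and 69.0% at 1h, and those farther away at 26.5% and 33.6% and at 61.6% and 73.5%, so the order of the groups changed between libraries. The acetylated regions had 55.2% and 59.1% at 0h near a TSS and 52.0% and 63.0% farther away. CHD4 was called at 11.5% and 23.0% of the near members at 0h and at 17.2% and 37.9% at 2h, and at 10 and 38 of the 211 far ones at 0h (4.74% in replicate 1) and at 10.4% and 40.3% at 2h. Without the 22 tandem repeat members, CHD4 was called at 5 of 80 near and 7 of 196 far members in 0h replicate 1, and at 17.5% and 16.8% in 0h replicate 2. The far share was then the higher in both 1h libraries (19.9% and 16.3% against 16.25% and 11.25%) and in 2h replicate 2 (38.8% against 32.5%). In the remaining libraries the near share was the higher. In acetylated regions CHD4 was the rarer near a TSS, with 13.6% and 32.5% at 0h against 31.4% and 59.8% farther away.

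The 4 highest promoter members were at Tha1, Cish, Cdr1 and Slc12a7. Tha1, which encodes threonine aldolase, had an Ikaros fold of 4.19 and 7.03 at 0h and of 6.80 and 8.32 at 2h (chr11:117871829-117872620). Cish, an inhibitor of cytokine signalling through STAT5 (chr9:107295906-107297369), had 8.40 and 10.6 at 0h, 3.47 in replicate 1 at 30 min with no call in replicate 2, 10.2 and 7.73 at 1h and 6.75 and 7.04 at 2h. Its nearest H3K27ac peak lay 15382 bp away, and no CHD4 list called it. Slc12a7, a potassium-chloride cotransporter gene (chr13:73762987-73764397), had 5.33 and 6.11 at 2h, was called at 0h in replicate 2 alone, and had no CHD4 call. Of these 4 promoters, picked by their 2h rank, 2 had Ikaros in all 8 lists, as did 8.72% of members and 26.1% of all 8829 regions. The CpG ratio ran from 0.309 at Tha1 to 0.865 at Slc12a7.

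The nearest H3K27ac peak of any list was 13386.5 bp away at the median (95% interval 10475 to 16203 from the order of the distances), and 4306.5 bp where Ikaros 2h replicate 2 was not required. It was within 1 kb for 40 members (13.4%), within 10 kb for 127 (42.6%) and over 100 kb away for 23 (7.72%). The closest peak was 14 bp away, at Rn7sk, and at Rnu3b1 it was 27 bp away. The 3 farthest were the Cdr1 array at 778717 bp, a region in an intron of Flrt2 at 753224 bp (chr12:95747099-95747627) and the satellite member at Gm10800 at 482424 bp (chr2:98666624-98667189). The Flrt2 region was called for Ikaros at 1h in replicate 1 (fold 3.27) and at 2h (3.64 and 2.95), and never for CHD4. Of the tandem members, 10 of 22 lay over 100 kb from an H3K27ac peak, against 13 of the other 276, while 4 of 22 and 36 of 276 had one within 1 kb. The median distance was 95499 bp against 12159.5 bp.

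**Figure D5:**
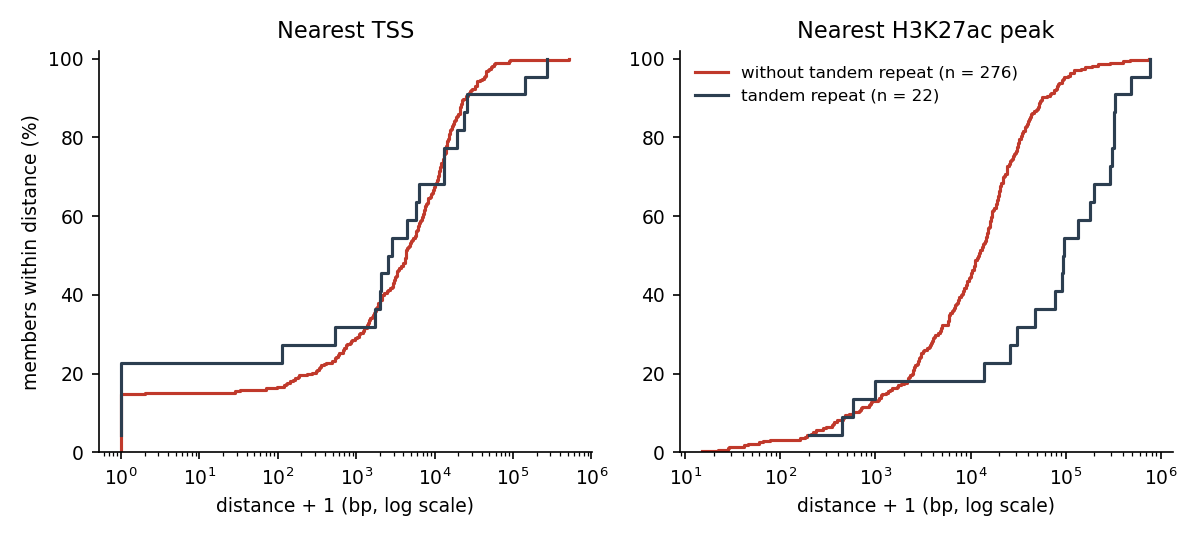
Cumulative share of members (%) by distance + 1 (bp, log scale) to the nearest TSS at the left and to the nearest H3K27ac peak at the right, for the 276 members without tandem repeats (red) and the 22 with them (dark). The curves run together at the left, while at the right the dark curve lies to the right of the red one beyond a few kb, with medians of 95499 and 12159.5 bp.

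Of all 21951 protein-coding genes, 313 (1.43%) had a member within 20 kb of a TSS and 34.5% an acetylated Ikaros region, and the counts of the lineage and target lists below are to be read beside these shares. Of 17 genes that the study's text names as rapidly repressed in these cells, a list chosen there on the same cells and so no independent evidence, 1 had a member and 14 had an acetylated Ikaros region. The gene was Plekho2, with a member at chr9:65598836-65599271 that was called for Ikaros at 1h in replicate 1 (fold 4.13) and at 2h (4.37 and 3.75) and never for CHD4. Plekho2 also had 6 acetylated Ikaros regions within 20 kb. Among 17 B-lineage transcription factor genes, 0 had a member and 16 an acetylated region. T cell genes had 0 of 16 and 9 of 16, and erythroid and megakaryocyte genes 0 of 12 and 3 of 12. Of 13 myeloid genes, Elane, the neutrophil elastase gene, was the 1 with a member, and 6 had an acetylated region. That member lies in an intron of Plppr3 (chr10:79873027-79873730), 2411 bp from an H3K27ac peak, with an Ikaros fold of 4.67 and 3.52 at 2h and no 0h call. Elane also had 2 acetylated regions within 20 kb. Germ cell genes had 0 of 12 and 1 of 12. The counts were not tested.

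Members were partly clustered. With gaps of at most 50 kb, 55 members fell into 22 clusters, the largest being the 8 around Sfi1 and the 5 satellite regions at chr9:3000036-3038268. A further cluster, like these picked out with its values known, holds 4 members at chr11:117871829-117952665, between Tha1 and Socs3, a cytokine signalling inhibitor like Cish. Their mean 2h ranks ran from 57.8 to 94.1, and the Tha1 member alone was called at 0h. Chromosome 11 held 43 members (14.4%), against 9.38% of acetylated regions. By RefSeq, 5 members (1.68%) overlapped a tRNA gene, against 0.727% of acetylated regions.

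The rule has sharp edges, and regions just outside it on the H3K27ac side were alike in several values. The 110 regions with an H3K27ac peak in exactly 1 list had a median 2h rank of 52.4, 48.2% were in neither Ikaros 0h list and 10.9% had CHD4 in both 2h lists, where the members had 44.8, 60.1% and 10.4%. CHD4 in both 2h lists stayed between 6.25% and 14.1% for regions in 1 to 7 H3K27ac lists and was 31.5% for those in all 8. On the Ikaros side, 1181 regions without H3K27ac were called in exactly 1 of the 2h lists. These were narrower, with a median of 352 bp, 1.95% had CHD4 in both 2h lists and 79.4% had it in none, and 89.5% were in neither Ikaros 0h list.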

How the data were processed

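Ikaros, CHD4 and H3K27ac ChIP-seq peak lists of 24 libraries were used, and 8 input libraries were not analysed here. According to the study's methods, read pairs were mapped by the authors with Bowtie2 2.4.2 (mm10), duplicates were handled with Picard 2.23.7, and MACS2 2.2.7.1 called the peaks, with its broad option for CHD4. This is stated for 0, 1 and 2h; the 30 min settings and the pairing with inputs are not given in the sources used here. As deposited, each peak has a display score (not used), a fold enrichment ratio over local background, and −log10 p and −log10 q values computed by the authors with MACS2, and none of these is a read count. A share of regions called can depend on the depth and length of a list, and the part of depth was not tested.

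Peak lists were merged and overlapped (at least 1 bp) with Python 3.11.15, numpy 2.4.6, pandas 2.3.3 and scipy 1.17.1. Genes came from GENCODE M21 and coordinates are 1-based. Fold and p together gave back pileups for the Ikaros lists from 30 min on (100% of the peaks tried were whole, within 0.001 of −log10 p) and the mean coverage of the narrow lists. Intervals are 95% Wilson intervals and cover counting error only. Library shares were tested by exact permutation of times and exact sign-flips over libraries, with Benjamini-Hochberg adjustment over 4 tests, and the scripts were tested on simulated data. The members and gene lists were chosen with earlier results of these data known. Regions named were the 6 with the highest mean 2h fold rank, the 4 highest that gained CHD4 (both 2h lists and neither 0h list), the 4 highest within 1 kb of a protein-coding TSS, the 3 farthest from H3K27ac and the highest within 20 kb of each listed gene. Of the regions so chosen, 1 is not reported here. Other settings tried were stricter peaks (−log10 q of at least 3), 50% overlap, lists of equal size, other distances, rank bins and leaving out each library. Replicates were also taken as a block for the trends and averaged at each time for the differences.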

Additional observations from a re-analysis of the deposited data

How the results depend on the processing

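The 2 trends and 2 differences kept their sign in the alternative runs, apart from the Ikaros trend without the 1h libraries (r = -0.18). Their size did not stay the same. The number of members, 298, was 192 with Ikaros peaks of −log10 q of at least 3 and 81 with lists of equal size, and ranged from 298 to 906 when 1 library was left out (906 without Ikaros 2h replicate 1 and 896 without 2h replicate 2, where 1 list sufficed). The share in neither 0h list was 48.1% with lists of equal size and 58.1% to 81.7% with 1 library left out (70.6% without Ikaros 0h replicate 2, 78.1% without 2h replicate 1 and 81.7% without 2h replicate 2). The share within 1 kb of a TSS was 44.0% at 3 kb and 25.4% to 30.3% with 1 library left out. The median H3K27ac distance was 10083 bp with 50% overlap, 16467.5 bp when no H3K27ac peak within 1 kb was allowed, and 4306.5 to 13973 bp with 1 library left out, the lowest without Ikaros 2h replicate 2. The Ikaros trend had rho 0.985 with lists of equal size (adjusted exact permutation p = 0.0444), the only setting that passed. The earlier Ikaros lists helped to set those regions, so that p cannot decide on a trend and is not counted. With 1 library left out, rho was 0.527 to 0.949 for the Ikaros trend and 0.0918 to 0.679 for the CHD4 trend. The Ikaros difference was -32.3 to -22.0 percentage points and the CHD4 difference -23.0 to -20.9 with 1 library left out. The CHD4 difference was -6.04 with lists of equal size, -3.49 with CHD4 peaks of −log10 q of at least 3 and no tandem members, and -0.249 with such peaks at all members (exact sign-flip permutation p = 0.789), and the cause was not tested.

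With the 2 replicates averaged at each time, the CHD4 difference was -21.4 percentage points. Its exact sign-flip permutation p was 0.125, the smallest that 4 times allow, and 0.333 after adjustment. For the Ikaros difference this p was 0.25 (the smallest exact p for 3 times). With the replicate number as a block, neither trend passed its permutation test. Replicate 1 minus replicate 2 changed sign between times, from -10.4 to 14.8 percentage points for Ikaros and from -27.2 to 4.70 for CHD4. The replicate numbers were therefore not taken to pair libraries. With regions merged from the 2h Ikaros lists alone, the calls of the 2 trends and 2 differences were the same, and the CHD4 difference was -21.8. That setting, tandem repeats, background classes and small RNA genes were added after seeing the data. Peak lists show calls, not levels, and a region without a peak may lie just under the threshold.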
